A study of Mus musculus with 9 samples.

Results

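Glutathione synthesis, glutathione transfer and the enzymes controlled by the transcription factor NRF2 form one of the main defences of a cell against reactive chemicals and oxidants. Expression of 40 mouse genes of this kind was compared in neural stem cells made from neurons with YAP (yNSCs), in native neural stem cells (NSCs) and in cortical neurons. The genes were a named list drawn up by function, with earlier results of these data known. Of the 40, 36 had a row among the 18193 genes measured, each read from a single probe set that names 1 gene (the one of highest mean where there were several). Akr1b3, G6pdx, Prdx1 and Prdx6 were not analysed here.

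Glutathione is a small peptide made from glutamate, cysteine and glycine. Glutathione transferases attach it to electrophiles such as products of lipid peroxidation, and glutathione peroxidases use it to reduce peroxides. In resting cells KEAP1 binds NRF2 (the product of Nfe2l2) and directs it to degradation. Electrophiles and oxidants modify cysteines of KEAP1, after which NRF2 accumulates, pairs with small MAF proteins and binds antioxidant response elements near genes of detoxification, glutathione synthesis, thioredoxin and NADPH supply. In the brain this pathway is known to be more active in astrocytes than in neurons. NRF2 is controlled largely through the stability of its protein, which an expression array does not measure.

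The 9 Affymetrix mouse arrays comprised 3 yNSC, 3 NSC and 3 neuron samples, which the labels call biological replicates (A, B and C within a group). yNSCs were derived from cortical neurons that received lentiviral vectors for a doxycycline-inducible wild-type YAP, the coactivator that Hippo signalling holds in check. They were grown as neurospheres. Per the methods of the study, doxycycline was used to start the conversion and left out of the medium once the first spheres had been dissociated, and the passage at which RNA was taken is not given in the sources used here. NSCs were native murine neural stem cells. Both were kept in DMEM/F12 with N2, EGF, bFGF, heparin, glutamine and antibiotics. Neurons came from cortices of late embryos or newborn pups and were kept in Neurobasal with B27, glutamine, antibiotics and AraC, which kills dividing cells. Cell type and medium therefore cannot be told apart in a comparison with neurons, whereas yNSCs and NSCs shared their medium. Per the methods, the neurons that gave yNSCs had also been through AraC culture, lentiviral vectors and doxycycline. Between yNSCs and NSCs, conversion and this history cannot be told apart. In such bulk samples, fewer cells expressing a gene and less RNA per cell cannot be told apart either.

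All values are log2 expression as deposited, and differences are between group means on that scale, so that a difference of 1 is 2-fold. A gene was called when its adjusted p from limma over all 18193 genes was under 0.05. A group mean was termed near background when it lay below the mean lower quartile of the arrays of that group, which was 3.49 in yNSCs, 3.43 in NSCs and 3.71 in neurons. All 8 neuronal markers were lower in yNSCs and in NSCs than in neurons, against 27.9% and 34.1% of all genes. Of 8 neural stem cell markers 6 were higher in yNSCs and 7 in NSCs than in neurons, against 34.6% and 33.3% of all genes. Between yNSCs and NSCs, 2 of these 8 stem cell markers were higher in yNSCs (Prom1 by 1.70, Msi1 by 0.61) and 2 lower (Hes5, and Fabp7 at -0.31). Nes, Vim, Sox2 and Pax6 were not called there. Of all genes 21.3% were higher and 18.0% lower in that comparison. Hes5, a Notch target and marker of neural stem cells, averaged 4.22 in yNSCs, 8.09 in NSCs and 5.05 in neurons, so that yNSCs were lower than NSCs by a difference of -3.88 (adjusted p = 3.73e-09) and lower than neurons by one of -0.84 (adjusted p = 0.000469). Genes of astrocytes and microglia were also expressed on the neuron arrays, so values there need not come from neurons alone. The mean level of 8 astrocyte markers was 9.66 to 9.79 on the neuron arrays. The mean level of 8 microglial and macrophage genes was 4.39 to 4.44 on the yNSC arrays, 3.56 to 3.60 on the NSC arrays and 7.67 to 8.26 on the neuron arrays.

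Most of the detoxification genes were highest in yNSCs. Of the 36, 22 were called higher and 5 lower in yNSCs than in NSCs, whereas of all genes 21.3% were called higher and 18.0% lower. The median difference of the 36 genes was 0.81 and that of all genes 0.07. In yNSCs against neurons 28 of the 36 were higher and 4 lower, against 34.6% and 27.9% of all genes, with median differences of 1.68 for the 36 and -0.01 for all genes. In NSCs against neurons 22 were higher and 9 lower, against 33.3% and 34.1% of all genes, with median differences of 0.58 and -0.07. Counting differences of at least 2-fold alone, 17 genes were higher and 0 lower in yNSCs against NSCs, where the shares of all genes were 6.05% and 5.96%. In yNSCs against neurons 22 were higher and 1 lower by this measure, against 18.3% and 11.0% of all genes, and in NSCs against neurons 12 and 4, against 18.6% and 12.6%.

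Of the 36 genes, 21 were called higher in yNSCs than in both NSCs and neurons, which was so for 12.1% of all genes, and 2 (Mgst3 and Gpx3) were lower than in both, against 6.26% of all genes. The group mean was highest in yNSCs for 27 genes, in NSCs for 6 and in neurons for 3. For 19 genes the means ran in the order yNSCs, NSCs, neurons, and for 8 in the order yNSCs, neurons, NSCs. The highest group and the order were not counted over all genes, so they do not show how far the 36 genes differ from the rest. The 3 comparisons share their arrays in pairs, so these counts are not independent of each other. When each array was centred on the median of its gene rows, the numbers of the 36 called higher were 21 in yNSCs against NSCs, 26 in yNSCs against neurons and 21 in NSCs against neurons. This centring moved the balance of all genes. As deposited, 3876 were higher and 3277 lower in yNSCs against NSCs, which became 3371 and 3531 (median difference 0.017). In yNSCs against neurons 6294 were higher and 5081 lower, which became 5392 and 7567 (median difference -0.19), and in NSCs against neurons 6052 were higher and 6206 lower, which became 5457 and 7969 (median difference -0.21).

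**Figure D1:**
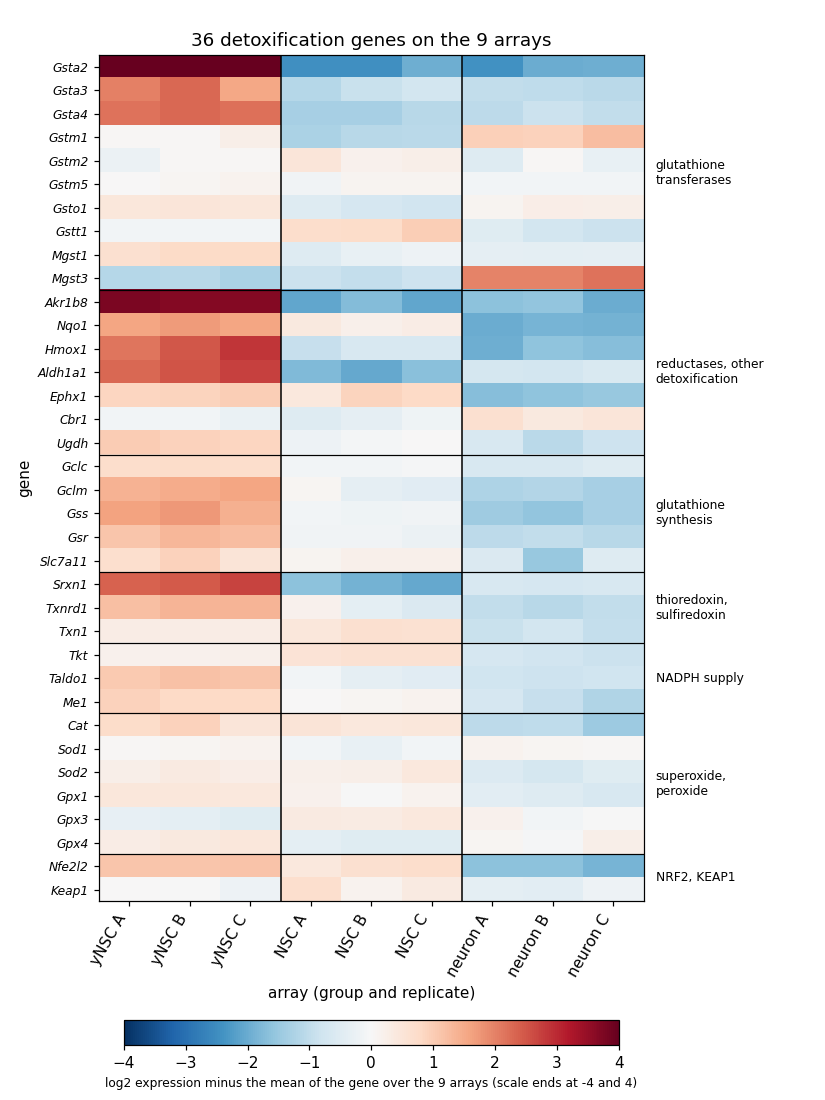
Expression of the 36 genes on each array (columns: 3 yNSC, 3 NSC and 3 neuron arrays), as log2 value minus the mean of the gene over the 9 arrays, with genes grouped by role (rows). Red cells fill the yNSC columns for Gsta2, Gsta3, Gsta4, Akr1b8, Hmox1, Aldh1a1 and Srxn1, while Gstm1, Mgst3 and Cbr1 are reddest in the neuron columns.

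The core of the antioxidant response element, TGACNNNGC, was searched on both strands in RefSeq promoter windows of build GRCm38.p6, from 250 bases before to 50 bases after each annotated start. Windows were at hand for 32 of the 36 genes and 10 of these held the core (31.2%). Of all 27025 genes with a window 14.0% held it, and of those that also had a gene row on the array 16.2%. Among the 21 genes called higher in yNSCs than in both other groups, 8 of 17 with a window held it (47.1%). Among the other 15 genes 2 did (13.3%). The genes without a window, Gsta4, Gsr, Hmox1 and Gclc, were all among the 21. Within the 17, Gsta2, Gsto1, Akr1b8, Nqo1, Aldh1a1, Gss, Taldo1, Gpx1 and Gpx4 did not hold the core. A match describes the letters of the window and is no evidence of binding. The stretches below show the matches of those 8 genes, written along the strand of the gene with the core in capitals, so that a core on the opposite strand appears as GCNNNGTCA.
Gclm (chr3:122245403-122245451, + strand): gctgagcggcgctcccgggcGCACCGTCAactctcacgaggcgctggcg
Txnrd1 (chr10:82859094-82859142, + strand): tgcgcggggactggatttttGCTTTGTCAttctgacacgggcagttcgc
Srxn1 (chr2:152105542-152105570, + strand): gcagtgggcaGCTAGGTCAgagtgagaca
Gsta3 (chr1:21240444-21240492, + strand): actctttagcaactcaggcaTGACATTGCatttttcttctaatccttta
Mgst1 (chr6:138140451-138140499, + strand): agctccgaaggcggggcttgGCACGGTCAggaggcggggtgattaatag
Ugdh (chr5:65435908-65435994, - strand): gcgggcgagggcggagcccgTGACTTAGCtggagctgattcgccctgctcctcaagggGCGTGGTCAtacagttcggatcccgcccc
Me1 (chr9:86695902-86695930, - strand): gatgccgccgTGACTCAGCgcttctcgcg
Nfe2l2 (chr2:75704875-75704913, - strand): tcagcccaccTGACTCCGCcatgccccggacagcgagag

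The core began 134 bases before the start in Gclm, 92 in Txnrd1, 121 in Gsta3, 56 in Mgst1, 132 and 94 in Ugdh, 6 in Me1 and 240 in Nfe2l2, while in Srxn1 it lay downstream of the start, from base 29. Ugdh was the only one of the 8 with a pair of matches. The core of Me1 contains TGACTCA, the recognition sequence of AP-1 factors, and the cores of the other 7 genes do not.

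Glutathione transferases differed among themselves. Against NSCs, yNSCs had 6 of 10 higher and 2 lower. All 3 alpha-class genes, whose products conjugate lipid peroxidation products, were among the 6. Gsta2 read 9.33, 9.46 and 9.28 on the yNSC arrays, against 2.51, 2.49 and 3.01 on the NSC arrays and 2.54, 2.97 and 3.01 on the neuron arrays. It was thus near background in both NSCs and neurons and well above it on every yNSC array. The difference was 6.69 ± 0.16 (SE; 103-fold) from NSCs, adjusted p = 1.07e-10, and 6.52 ± 0.16 from neurons, adjusted p = 1.21e-11. The size of such a difference is less certain than its direction, because one side lies near background. The probe set may also detect Gsta1, a near-identical neighbour in the family that was not analysed here. Gsta3 had 5.82, 6.12 and 5.36 in yNSCs, 2.67, 2.93 and 3.07 in NSCs and 2.82, 2.81 and 2.75 in neurons, again near background outside yNSCs. Its difference was 2.88 ± 0.17 from NSCs (adjusted p = 8.69e-08) and 2.97 ± 0.17 from neurons (adjusted p = 1.48e-08).

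Gsta4, the transferase with a preference for the lipid aldehyde hydroxynonenal, was expressed in all groups. It read 12.22, 12.34 and 12.25 in yNSCs, 8.73, 8.72 and 8.93 in NSCs and 9.00, 9.20 and 9.06 in neurons. No yNSC array came near those of the other groups. yNSCs exceeded NSCs by 3.48 ± 0.10 (11.1-fold, adjusted p = 4.2e-10) and neurons by 3.18 ± 0.10 (adjusted p = 1.11e-10). NSCs were lower than neurons by a difference of -0.29 ± 0.10 (adjusted p = 0.0255), a call that was lost when only the 6 arrays of that comparison were fitted and without NSC replicate A or B or neuron replicate B.

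Outside the alpha class the pattern was mixed. Mgst1, a membrane-bound transferase of the endoplasmic reticulum, was higher in yNSCs by 1.06 than in NSCs and by 1.08 than in neurons, while NSCs and neurons differed by 0.02 (95% confidence interval -0.21 to 0.25). Gsto1, an omega-class enzyme with thiol transferase activity, averaged 9.79 ± 0.01 in yNSCs, 8.67 ± 0.12 in NSCs and 9.53 ± 0.09 in neurons (SD, n = 3 each). Its difference of 1.11 from NSCs was called under every alternative, while that of 0.26 from neurons (adjusted p = 0.0394) was lost without yNSC replicate A, B or C, without NSC replicate B or without neuron replicate A or C, and the difference was 0.07 when arrays were centred on their gene rows. Gstm1, of the mu class, was highest in neurons. It averaged 10.96 ± 0.12 in yNSCs, 9.69 ± 0.09 in NSCs and 11.88 ± 0.18 in neurons, so that yNSCs lay above NSCs by 1.27 (adjusted p = 3.73e-06) and below neurons by a difference of -0.93 (adjusted p = 1.94e-05). Its probe set is of a kind that can bind transcripts of related mu-class genes.

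Mgst3, a microsomal transferase with peroxidase activity, was highest on the neuron arrays. It read 7.43, 7.45 and 7.31 in yNSCs, 7.72, 7.62 and 7.74 in NSCs and 10.56, 10.54 and 10.75 in neurons. Both stem cell groups were far below neurons, with differences of -3.22 ± 0.10 in yNSCs (adjusted p = 7.96e-11) and -2.92 ± 0.10 in NSCs (adjusted p = 1.66e-10). yNSCs differed from NSCs by -0.30 ± 0.10 (adjusted p = 0.0351), a call that was lost without yNSC replicate A, B or C or NSC replicate A or C and in which the mean of all probe sets gave -0.11. Gstt1, of the theta class, was lower in yNSCs than in NSCs by a difference of -0.90 (adjusted p = 7.62e-05) and higher than in neurons by 0.60. Gstm5 averaged 11.28 ± 0.06 in yNSCs, 11.23 ± 0.15 in NSCs and 11.10 ± 0.01 in neurons and was called in no comparison, the 95% confidence interval of yNSCs minus NSCs being -0.17 to 0.27. Gstm2 averaged 3.31 in yNSCs, 3.65 in NSCs and 3.11 in neurons, near background in yNSCs and neurons, and its difference of -0.33 between yNSCs and NSCs was not called.

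**Figure D2:**
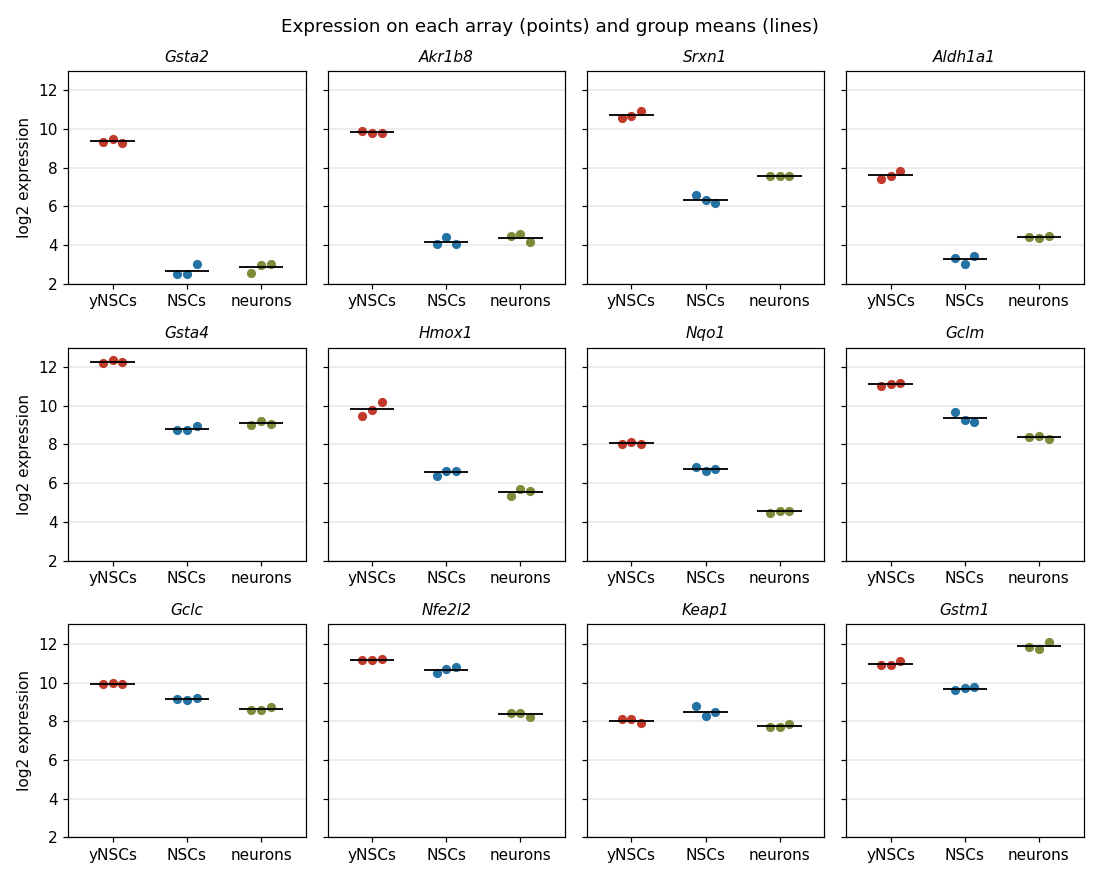
Log2 expression of 12 genes on each array (points, 3 per group) with the group mean (black line), for yNSCs, NSCs and neurons from left to right. The yNSC points lie above all NSC and neuron points for the genes from Gsta2 to Nfe2l2, whereas Keap1 is highest in NSCs and Gstm1 in neurons.

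Reductases and other detoxification enzymes were higher in yNSCs than in NSCs for 5 of 7 genes and lower for none, and higher than in neurons for 6 with 1 lower. The shares of all genes higher and lower were 21.3% and 18.0% against NSCs and 34.6% and 27.9% against neurons. Akr1b8, an aldo-keto reductase that reduces lipid aldehydes, had 9.90, 9.79 and 9.78 in yNSCs, 4.03, 4.40 and 4.03 in NSCs and 4.47, 4.55 and 4.13 in neurons. All 3 yNSC arrays were thus more than 5 units above every other array. yNSCs exceeded NSCs by 5.67 ± 0.14 (50.9-fold, adjusted p = 1.07e-10) and neurons by 5.44 ± 0.14 (adjusted p = 1.35e-11). NSCs and neurons differed by -0.23 (95% confidence interval -0.53 to 0.07), which was not called. Aldh1a1, which oxidises retinaldehyde and other aldehydes, read 7.39, 7.59 and 7.82 in yNSCs, 3.31, 3.04 and 3.43 in NSCs, near background, and 4.40, 4.34 and 4.47 in neurons. The difference was 4.34 ± 0.13 from NSCs (adjusted p = 5.8e-10) and 3.20 ± 0.13 from neurons (adjusted p = 9.4e-10).

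Hmox1, which opens haem and releases iron, carbon monoxide and biliverdin, read 9.45, 9.79 and 10.17 in yNSCs, 6.39, 6.65 and 6.65 in NSCs and 5.35, 5.68 and 5.59 in neurons. The yNSC arrays varied among themselves (SD 0.36) and still lay clear of both other groups. The difference was 3.24 ± 0.17 from NSCs (9.45-fold, adjusted p = 2.81e-08) and 4.26 ± 0.17 from neurons (adjusted p = 5.6e-10). Nqo1, the quinone reductase used most often as a reporter of NRF2 activity, was graded over the groups. It had 8.04, 8.14 and 8.03 in yNSCs, 6.84, 6.65 and 6.74 in NSCs and 4.47, 4.58 and 4.56 in neurons, with no overlap between any 2 groups. yNSCs exceeded NSCs by 1.33 ± 0.10 (2.51-fold, adjusted p = 4.87e-07) and neurons by 3.53 ± 0.10 (adjusted p = 2.56e-11), and NSCs exceeded neurons by 2.21 ± 0.10 (adjusted p = 1.26e-09).

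Ugdh, which makes the UDP-glucuronate used for glucuronidation, was higher in yNSCs by 1.04 than in NSCs (adjusted p = 2.81e-05) and by 1.79 than in neurons. Ephx1, the microsomal epoxide hydrolase, was shared by both stem cell groups. It read 11.43, 11.45 and 11.54 in yNSCs, 10.97, 11.44 and 11.36 in NSCs and 8.84, 8.94 and 9.03 in neurons. The yNSC and NSC arrays overlapped, with a difference of 0.22 (95% confidence interval -0.06 to 0.50), and the differences from neurons were 2.54 in yNSCs (adjusted p = 4.51e-09) and 2.32 in NSCs (adjusted p = 9.03e-09). Cbr1, a carbonyl reductase, went the other way. It was lower than in neurons by differences of -0.68 in yNSCs and -0.86 in NSCs, and yNSCs and NSCs differed by 0.18 (95% confidence interval -0.07 to 0.43).

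Genes of glutathione synthesis and recycling followed the pattern closely. All 5 were higher in yNSCs than in neurons and in NSCs than in neurons, and 4 of 5 were higher in yNSCs than in NSCs. The shares of all genes called higher in these comparisons were 34.6%, 33.3% and 21.3%. Gclc, the catalytic subunit of glutamate-cysteine ligase, the rate-limiting enzyme, read 9.93, 9.97 and 9.93 in yNSCs, 9.14, 9.12 and 9.18 in NSCs and 8.59, 8.60 and 8.71 in neurons. Gclm, the modifier subunit of the same enzyme, read 11.01, 11.10 and 11.19 in yNSCs, 9.69, 9.25 and 9.16 in NSCs and 8.37, 8.43 and 8.28 in neurons. For both subunits the groups did not overlap, with yNSCs highest and neurons lowest. yNSCs exceeded NSCs by 0.80 ± 0.09 for Gclc (adjusted p = 2.1e-05) and by 1.73 ± 0.14 for Gclm (adjusted p = 9.04e-07), and exceeded neurons by 1.31 for Gclc and 2.74 for Gclm. The other probe set of Gclc gave a difference of 1.26 between yNSCs and NSCs and one of -0.02 between NSCs and neurons, which was not called, so that for this subunit the call in NSCs against neurons rests on 1 probe set.

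Gss, the synthetase that adds glycine, averaged 8.49 ± 0.15 in yNSCs, 6.77 ± 0.03 in NSCs and 5.47 ± 0.14 in neurons. Its differences were 1.72 from NSCs (3.3-fold, adjusted p = 1.67e-07) and 3.02 from neurons (adjusted p = 2.9e-10). Gsr, the reductase that restores oxidised glutathione with NADPH, averaged 10.24 ± 0.10 in yNSCs, 8.84 ± 0.04 in NSCs and 7.97 ± 0.07 in neurons, with differences of 1.40 (adjusted p = 3.09e-07) and 2.27 (adjusted p = 1.12e-09). Both genes had a further probe set that was called in the same direction in all 3 comparisons.

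Slc7a11, the cystine and glutamate exchanger that brings in cystine for glutathione, depended on the probe set. The representative one read 7.22, 7.46 and 7.04 in yNSCs, 6.66, 6.74 and 6.74 in NSCs and 5.95, 5.02 and 6.02 in neurons. Its difference between yNSCs and NSCs was 0.53 ± 0.22 (95% confidence interval 0.04 to 1.01, adjusted p = 0.0812) and was not called, while those from neurons were 1.58 in yNSCs (adjusted p = 4.65e-05) and 1.05 in NSCs (adjusted p = 0.00113). Another probe set of Slc7a11 read 8.24, 8.42 and 8.29 in yNSCs, 5.60, 5.76 and 5.97 in NSCs and 5.49, 5.61 and 4.52 in neurons, a difference of 2.54 between yNSCs and NSCs (adjusted p = 3.97e-06 over all probe sets). Both probe sets placed yNSCs highest, and they differed in how far.

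**Figure D3:**
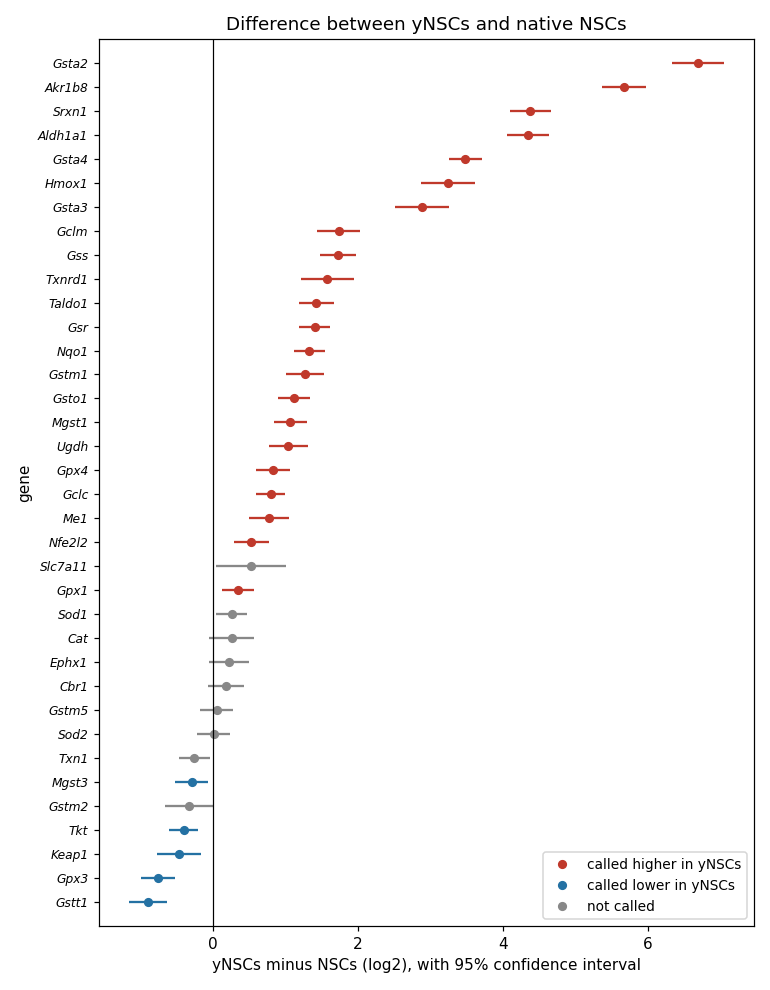
Difference between yNSCs and NSCs (x axis, log2) for the 36 genes, ordered by size, with the 95% confidence interval of the fit and colours for the call. The points run from 6.69 for Gsta2 down to -0.90 for Gstt1, with 22 genes called higher, 5 called lower and 9 not called.

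Of the thioredoxin genes, Srxn1 and Txnrd1 were higher in yNSCs than in NSCs and all 3 were higher than in neurons, against 21.3% and 34.6% of all genes. Srxn1, the sulfiredoxin that repairs overoxidised peroxiredoxins, read 10.56, 10.68 and 10.93 in yNSCs, 6.58, 6.31 and 6.16 in NSCs and 7.59, 7.54 and 7.59 in neurons. yNSCs were highest and NSCs lowest, with no overlap. The difference was 4.37 ± 0.13 from NSCs (20.7-fold, adjusted p = 4.1e-10) and 3.15 ± 0.13 from neurons (adjusted p = 8.28e-10), and NSCs against neurons gave -1.22 ± 0.13 (adjusted p = 3.83e-06). Of the 4 probe sets of Srxn1, all were called in these directions, with differences of 2.27 to 4.63 between yNSCs and NSCs.

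Txnrd1, the cytosolic thioredoxin reductase, averaged 11.77 ± 0.10 in yNSCs, 10.20 ± 0.40 in NSCs and 9.44 ± 0.08 in neurons, and yNSCs exceeded NSCs by 1.58 ± 0.17 (2.98-fold, adjusted p = 1.07e-05). Another of its probe sets averaged 9.18 in yNSCs, 5.43 in NSCs and 6.35 in neurons. Both put yNSCs highest, but they disagreed on NSCs against neurons, at 0.76 for the representative one (adjusted p = 0.0015) and -0.92 for the other (adjusted p = 0.000104 over all probe sets). Txn1, thioredoxin itself, was 13.05 on all 3 yNSC arrays and averaged 13.31 ± 0.09 in NSCs and 11.88 ± 0.11 in neurons. It was higher than in neurons by 1.17 in yNSCs and 1.43 in NSCs, and its difference of -0.26 between yNSCs and NSCs had an adjusted p of 0.0616.

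Of the 3 genes measured under NADPH supply, Me1 encodes an enzyme that makes NADPH. Taldo1 and Tkt act in steps of the pentose phosphate pathway that do not themselves make it. All 3 were higher in both stem cell groups than in neurons, where 34.6% of all genes were higher in yNSCs and 33.3% in NSCs. Taldo1, transaldolase of the pentose phosphate pathway, was higher in yNSCs than in NSCs by 1.42 ± 0.11 (2.68-fold, adjusted p = 8.35e-07), and Me1, the cytosolic malic enzyme, by 0.77 ± 0.13 (adjusted p = 0.000426). Tkt, the transketolase of the same pathway as Taldo1, averaged 12.53 ± 0.02 in yNSCs and 12.94 ± 0.03 in NSCs, a difference of -0.41 ± 0.09 (adjusted p = 0.00384). One of its 3 probe sets was called the other way, with a difference of 0.53.

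Enzymes that remove superoxide and peroxides differed by less than 2-fold between yNSCs and NSCs. Of 6 measured, 2 were higher, 1 was lower and 3 were not called. The 33.3% higher and 16.7% lower compare with 21.3% and 18.0% of all genes, so with 6 genes these counts do not set the role apart. Gpx4, which reduces lipid hydroperoxides in membranes, averaged 11.93 ± 0.07 in yNSCs, 11.10 ± 0.05 in NSCs and 11.64 ± 0.15 in neurons. The difference of 0.83 from NSCs (adjusted p = 5.21e-05) was called under every alternative, and that of 0.29 from neurons (adjusted p = 0.0323) was lost without yNSC replicate B or C or neuron replicate A or B and was 0.10 when arrays were centred on their gene rows. Gpx1, the cytosolic glutathione peroxidase, was higher in yNSCs than in NSCs by 0.34 (adjusted p = 0.0171), a call lost without yNSC replicate A or B or NSC replicate B. Gpx3, the secreted form, was lower in yNSCs (6.27 ± 0.07) than in NSCs (7.03 ± 0.05) and neurons (6.68 ± 0.15), by differences of -0.76 and -0.41.

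On their representative probe sets, Cat, the catalase of peroxisomes, and Sod2, the mitochondrial superoxide dismutase, did not pass the test between yNSCs and NSCs, at 0.26 (95% confidence interval -0.05 to 0.56) and 0.01 (-0.22 to 0.24). On these probe sets both were higher than in neurons, by 1.89 in yNSCs and 1.64 in NSCs for Cat and by 0.87 in yNSCs and 0.86 in NSCs for Sod2. The result between yNSCs and NSCs depended on the probe set. The other Cat probe set was called higher in yNSCs, by 0.77 (adjusted p = 0.000112 over all probe sets). Further Sod2 probe sets were called higher by 0.27 (adjusted p = 0.0425) and 0.78 (adjusted p = 0.000649), and another, at -0.27, was not called. Sod1, the cytosolic superoxide dismutase, averaged 11.49 ± 0.04 in yNSCs, 11.23 ± 0.12 in NSCs and 11.49 ± 0.04 in neurons. Its difference of 0.26 between yNSCs and NSCs had an adjusted p of 0.0531. Another Sod1 probe set went the other way, at -0.82 between yNSCs and NSCs.

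The transcription factor and its inhibitor differed by less than 2-fold between yNSCs and NSCs. Nfe2l2, which encodes NRF2, read 11.18, 11.18 and 11.20 in yNSCs, 10.48, 10.71 and 10.78 in NSCs and 8.43, 8.44 and 8.20 in neurons. The groups did not overlap, and both stem cell groups lay more than 2 units above neurons. The differences were 0.53 ± 0.11 for yNSCs against NSCs (1.44-fold, adjusted p = 0.00236), 2.83 ± 0.11 for yNSCs against neurons (adjusted p = 5.6e-10) and 2.30 ± 0.11 for NSCs against neurons (adjusted p = 3.04e-09). Another probe set of Nfe2l2 read 4.47, 4.79 and 4.53 in yNSCs, 4.67, 5.27 and 5.44 in NSCs and 3.38, 3.72 and 3.40 in neurons. There the difference between yNSCs and NSCs was -0.53 (adjusted p = 0.0397 over all probe sets), and the differences from neurons kept their direction.

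Keap1, the adaptor that retains NRF2, read 8.12, 8.09 and 7.89 in yNSCs, 8.78, 8.25 and 8.47 in NSCs and 7.71, 7.69 and 7.88 in neurons. The yNSC arrays lay below the NSC arrays and, in replicate C, level with the highest neuron array. The difference was -0.47 ± 0.14 from NSCs (adjusted p = 0.0169), lost without yNSC replicate C or NSC replicate A, and 0.27 ± 0.14 from neurons (adjusted p = 0.103). The other Keap1 probe set went up, by 0.68 from NSCs (adjusted p = 0.000898 over all probe sets). A direction for Keap1, and one for Nfe2l2 between yNSCs and NSCs, is therefore not settled by this array.

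**Figure D4:**
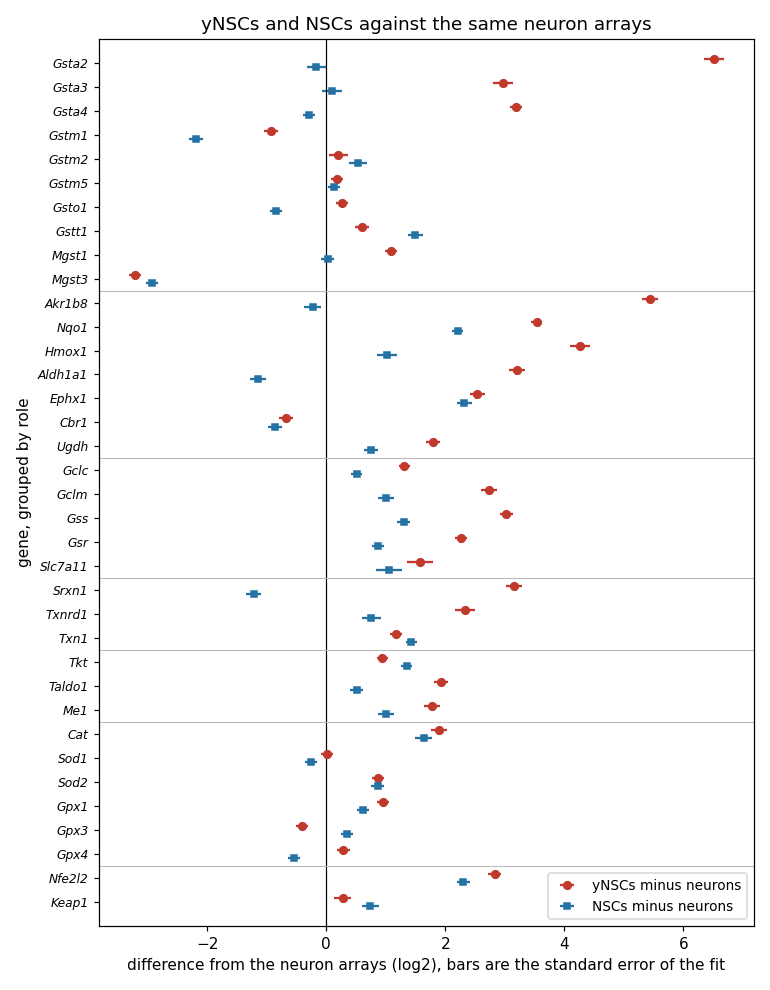
Difference from the 3 neuron arrays (x axis, log2) for yNSCs (red circles) and NSCs (blue squares), with the standard error of the fit, for the 36 genes grouped by role. For Gsta2, Akr1b8 and Hmox1 the yNSC points lie beyond 4 while the NSC points lie between -0.23 and 1.02, and for Srxn1 and Aldh1a1 the NSC points lie left of 0.

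Other genes of these pathways were counted in 6 further lists, of which 74 of 79 genes were measured. These lists were chosen with earlier results of these data known, so their counts are not independent of those results. Between yNSCs and NSCs 36 of the 74 were called higher (48.6%) and 13 lower (17.6%), against 21.3% and 18.0% of all genes. Targets of NRF2 outside the 36 genes had the highest share called higher among these lists. Of 14 measured, 13 were higher in yNSCs than in NSCs and 1, the fatty acid receptor Cd36, was lower. Against neurons 11 were higher and 1 lower in yNSCs (78.6% and 7.14%, against 34.6% and 27.9% of all genes). In NSCs against neurons 5 were higher and 4 lower. These last are 35.7% and 28.6% of the 14, near the 33.3% and 34.1% of all genes. Aox1, an aldehyde oxidase, had 9.38, 9.12 and 9.03 in yNSCs against 5.62, 6.22 and 6.62 in NSCs and 6.37, 6.50 and 6.43 in neurons, a difference of 3.02 from NSCs (adjusted p = 2.34e-07). Osgin1, an oxidative stress-induced growth inhibitor, was higher in yNSCs than in NSCs by 2.36 (adjusted p = 1.3e-06), with NSC arrays near background at 3.22, 3.30 and 3.40. Ptgr1, a reductase of prostaglandins and unsaturated aldehydes, was higher by 2.12 than in NSCs (adjusted p = 3.55e-08) and by 4.87 than in neurons (adjusted p = 7.72e-12).

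Of the other glutathione transferases 8 of 12 were higher in yNSCs than in NSCs (66.7%, against 21.3% of all genes) and none was lower (against 18.0%). Mgst2 was higher by 2.62 (adjusted p = 1.67e-06) and Gsto2 by 2.26 (adjusted p = 2.14e-07), while Gstp1, the pi-class enzyme, was higher by 0.64. Mgst2 averaged 5.90 in yNSCs, 3.28 in NSCs and 3.43 in neurons, and Gsto2 averaged 5.16 in yNSCs, 2.90 in NSCs and 2.84 in neurons. Both were near background outside yNSCs, so that the size of their differences is less certain. Of 13 genes of glutathione turnover and transport 5 were higher and 2 lower (38.5% and 15.4%, against 21.3% and 18.0% of all genes), with the glutathione conjugate exporter Abcc1 higher by 1.26 (adjusted p = 3.52e-05) and Ggt7 lower, at -1.15 (adjusted p = 9.78e-06). Of 17 other peroxidases and thiol oxidoreductases 5 were higher and 5 lower (29.4% each), with Gpx8 of the endoplasmic reticulum at 2.11 (adjusted p = 1.18e-05) and Gpx7 of the same compartment at -1.20 (adjusted p = 3.79e-06).

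Among 9 other genes listed under NADPH supply, some of them in the same pathway as Taldo1, yNSCs had 2 higher and 4 lower against NSCs. These are 22.2% and 44.4%, against 21.3% and 18.0% of all genes. The cytosolic isocitrate dehydrogenase Idh1 was lower, with 10.31, 10.17 and 10.01 in yNSCs against 11.67, 11.90 and 11.90 in NSCs, a difference of -1.66 (adjusted p = 9.81e-07), and the mitochondrial enzyme Idh2 gave -0.75. Against neurons 7 of the 9 were higher and 1 was lower in yNSCs (77.8% and 11.1%, against 34.6% and 27.9% of all genes). In NSCs 8 were higher and 1 was lower (88.9% and 11.1%, against 33.3% and 34.1%). Of 9 partners and regulators of NRF2, yNSCs had 3 higher and 1 lower against NSCs (33.3% and 11.1%). The small MAF gene Mafg was higher by 0.66 (adjusted p = 0.000176). Maff, of the same family, read 6.61, 7.21 and 8.25 in yNSCs against 6.48, 6.48 and 6.49 in NSCs, a difference of 0.87 (adjusted p = 0.037). It was 0.43 without yNSC replicate C (adjusted p = 0.0886), and the call was also lost without yNSC replicate B, without any one NSC replicate, without neuron replicate A or C and when only the 6 arrays compared were fitted. Bach2, a repressor that also pairs with small MAF proteins, was lower, at -1.89 (adjusted p = 2.62e-06), whereas Bach1 was not called, at -0.19. With the mean of all probe sets Bach2 gave -1.18 and Bach1 gave -0.92 (adjusted p = 7.17e-05), so that the result for Bach1 depended on the probe set.

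**Figure D5:**
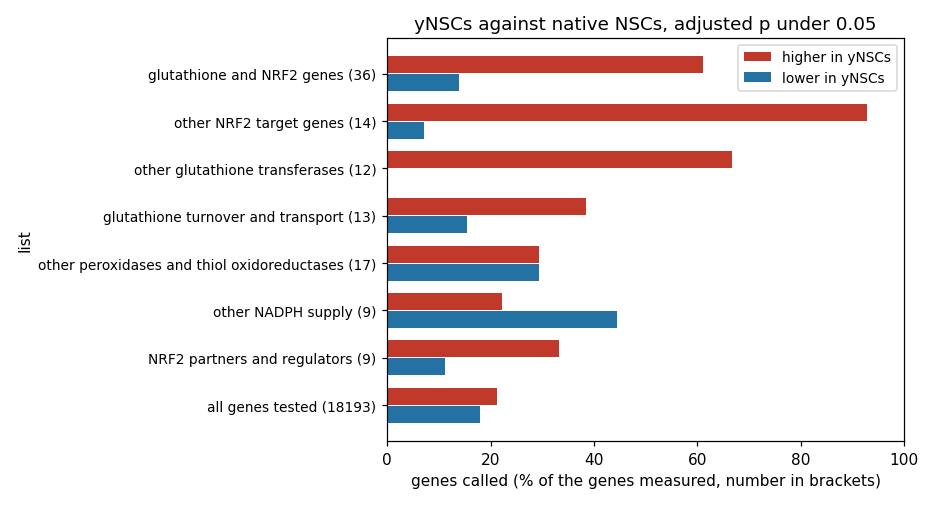
Share of genes called higher (red) and lower (blue) in yNSCs than in NSCs, as percent of the genes measured, for the 36 glutathione and NRF2 genes, 6 further lists and all 18193 genes. The red bar reaches 61.1% for the 36 genes and 92.9% for other NRF2 targets, against 21.3% for all genes, and for other NADPH supply the blue bar (44.4%) is longer than the red one (22.2%).

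Markers of other cell types and a measure of RNA quality moved with the contrast of yNSCs and NSCs, in which 21.3% of all genes were higher and 18.0% lower. Of 8 neuronal markers 3 were higher in yNSCs than in NSCs (Tubb3, Snap25 and Stmn2) and 3 lower (Rbfox3, Map2 and Syt1). Of 8 astrocyte markers 5 were higher in yNSCs than in NSCs and none was lower, and the mean level of the list was 9.60 to 9.76 on the yNSC arrays, 7.60 to 8.16 on the NSC arrays and 9.66 to 9.79 on the neuron arrays. Gfap, the astrocyte filament, averaged 9.23 in yNSCs, 3.80 in NSCs and 7.62 in neurons, and the water channel Aqp4 averaged 9.80 in yNSCs, 4.97 in NSCs and 10.62 in neurons. yNSCs had 4 of 8 mural cell and fibroblast genes higher and 2 lower against NSCs, with a mean level of 5.90 to 6.03 on the yNSC arrays, 5.18 to 5.26 on the NSC arrays and 5.04 to 5.14 on the neuron arrays. The actin-binding gene Tagln averaged 11.93 in yNSCs, 7.14 in NSCs and 5.72 in neurons, and smooth muscle actin, Acta2, averaged 10.79 in yNSCs, 9.10 in NSCs and 5.95 in neurons. The collagen genes Col1a1 and Col1a2 went the other way, with differences of -0.39 and -0.77 between yNSCs and NSCs. Pdgfrb and Lum were not called between yNSCs and NSCs. Of 7 oligodendrocyte lineage genes 3 were lower in yNSCs than in NSCs and none was higher, with a mean level of 6.40 to 6.50 on the yNSC arrays, 7.34 to 7.41 on the NSC arrays and 7.47 to 7.49 on the neuron arrays. Among them the receptor Pdgfra averaged 4.04 in yNSCs, 7.15 in NSCs and 9.61 in neurons, and Cspg4 averaged 5.79 in yNSCs, 7.99 in NSCs and 6.42 in neurons. Of 8 microglial genes 5 were also higher in yNSCs than in NSCs, with 2 of the 8 near background in yNSCs and 3 in NSCs. Against neurons 7 of the 8 were lower in yNSCs, as were 27.9% of all genes. The 3' minus 5' signal of Actb, which grows as RNA degrades, was 0.19 to 0.31 in yNSCs, 0.56 to 0.70 in NSCs and 0.03 to 0.21 in neurons. The part of neuronal, astrocyte, mural cell, oligodendrocyte lineage or microglial content or of RNA quality in the differences of the detoxification genes was not tested.

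No array decided the pattern. NSC replicate A had 162 genes more than 2-fold from its partners, against 1 to 30 on the other arrays, but none of the 36 genes was among those of any array, and its largest departure was 0.67 for Txnrd1. With each array left out in turn, 21 to 23 of the 36 genes were called higher in yNSCs than in NSCs, 26 to 29 higher in yNSCs than in neurons, and 22 higher in NSCs than in neurons. The number lower in yNSCs than in NSCs was 3 to 6, with 3 when yNSC replicate C was left out. Among the genes called in yNSCs against NSCs, 16 had further probe sets, which were called in the same direction only for 11, in the opposite direction for Tkt, Nfe2l2 and Keap1, and not called for 2. In yNSCs against neurons no gene of 19 had a probe set called the opposite way, and in NSCs against neurons 3 of 19 did (Txnrd1, Sod1 and Sod2).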

How the data were processed

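Total RNA was extracted with Trizol, labelled as biotinylated cRNA and hybridised to 9 Affymetrix Mouse430_2 arrays. Per the labels, the authors computed log2 expression values with RMA (version not given in the sources used here), and these were deposited as 1 value per probe set, rounded to 2 decimals. RMA equalizes the arrays, so a change in total RNA per cell is not seen, and it compresses differences near background. Array medians were 4.9 to 5.02, and 3 arrays per group limit the precision.

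Values were used as deposited. Of 45101 probe sets 64 controls were left out, and 932 probe sets naming several genes and 9160 not named here entered no comparison. Names came from GEO's annotation of the array. For each of 18193 genes the probe set of highest mean was used. A model of the 3 group means was fitted over the 9 arrays (limma 3.58.1, R 4.3.3; 6 residual and 5.59 prior degrees of freedom), two-sided, with Benjamini-Hochberg adjustment over 18193 genes, and the fit was tested on simulated data. Where a p is given over all probe sets, the same model was fitted to every probe set naming 1 gene. The 36 genes and the further lists were chosen with earlier results of these data known. Values on every array are given for the 8 genes of largest called difference in yNSCs against NSCs, the 4 largest in each comparison with neurons and 7 named ones (Nfe2l2, Keap1, Nqo1, Hmox1, Gclc, Gclm, Slc7a11), and up to 3 called genes are named per further list. Promoter sequences are from RefSeq (GRCm38.p6). Replicate letters did not pair the arrays (correlations of deviations -0.105 to 0.0997). Alternatives were a replicate block, only the 6 arrays compared, a filter on the 40% of genes of lowest mean, another quantile normalization, centring on array medians (all probe sets or, chosen after seeing the data, gene rows), other probe set choices, a trended robust prior, a 2-fold minimum and leaving out each array.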

Additional observations from a re-analysis of the deposited data

Results flagged for a closer look

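For 6 of the 36 genes yNSCs and NSCs were called in opposite directions against neurons and the direct comparison of yNSCs with NSCs was called as well. The direct call was a condition for listing a gene. The direct difference is also the difference between those from neurons, so its call is no separate evidence. The share of all genes that meet this rule was not counted. Srxn1 was 3.15 above neurons in yNSCs and -1.22 in NSCs, and yNSCs minus NSCs was 4.37 (adjusted p = 4.1e-10). Aldh1a1 gave 3.20 in yNSCs and -1.14 in NSCs, with a direct difference of 4.34 (adjusted p = 5.8e-10), its NSC mean being near background. Gsta4 gave 3.18 in yNSCs and -0.29 in NSCs, with a direct difference of 3.48 (adjusted p = 4.2e-10).

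The other 3 differences were smaller. Gsto1 gave 0.26 in yNSCs and -0.85 in NSCs, with a direct difference of 1.11 (adjusted p = 2.91e-06). Gpx4 gave 0.29 in yNSCs and -0.54 in NSCs, with a direct difference of 0.83 (adjusted p = 5.21e-05). Gpx3 ran the opposite way, at -0.41 in yNSCs and 0.35 in NSCs, with a direct difference of -0.76 (adjusted p = 9.83e-05). The calls of yNSCs against neurons for Gsto1 and Gpx4, of NSCs against neurons for Gsta4 and of NSCs against neurons for Gpx3 were each lost under at least 1 alternative.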

How the results depend on the processing

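The 36 genes in the 3 comparisons gave 108 differences, each refitted under every alternative, and the counts here are of refits, so 1 difference enters many times. Under alternatives that kept all arrays, 898 refits kept the direction and the side of the threshold. In 19 the call was lost, in 18 one was gained and in 25 the sign turned. With 1 array left out 929 kept both, 28 lost the call, 7 gained one and 8 turned their sign. The values that turned belonged to small differences or to genes whose probe sets disagreed, and apart from Nfe2l2, Keap1, Gclc, Gpx4, Sod1, Txnrd1 and Gsto1 none of them was called as deposited.

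With the mean of all probe sets, yNSCs minus NSCs was 0.00 for Nfe2l2, 0.11 for Keap1 and -0.087 for Sod1, and NSCs minus neurons was 0.30 for Sod1, -0.089 for Txnrd1, -0.095 for Gsta3 and -0.20 for Mgst1. Then 2 genes were lower in yNSCs than in NSCs, and the median in NSCs against neurons was 0.33. With the probe set of highest variance, yNSCs minus NSCs was -0.82 for Sod1, and NSCs minus neurons was 1.04 for Sod1, -0.92 for Txnrd1, -0.023 for Gclc and 0.053 for Gpx4. The medians were 0.91 in yNSCs against NSCs and 1.78 in yNSCs against neurons.

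Another quantile normalization gave yNSCs minus neurons of -0.001 for Gsto1, -0.04 for Keap1 and -0.11 for Sod1, yNSCs minus NSCs of -0.049 for Sod2, and NSCs minus neurons of 0.039 for Gsta2 and -0.10 for Mgst1. Its medians were 1.46 in yNSCs against neurons and 0.42 in NSCs against neurons, and 8 genes of glutathione turnover were called in NSCs against neurons. Centring on the median of gene rows, chosen after seeing the data, gave yNSCs minus NSCs of 0.00 for Gstm5 and -0.043 for Sod2, yNSCs minus neurons of -0.003 for Gstm5 and -0.18 for Sod1, and NSCs minus neurons of -0.04 for Gsta3, -0.003 for Gstm5 and -0.12 for Mgst1. Its medians were 1.49 in yNSCs against neurons and 0.44 in NSCs against neurons. Centring on the median of all probe sets gave a median of 1.77 in yNSCs against neurons. Without the 40% of genes of lowest mean the medians were 1.44 in yNSCs against neurons and 0.75 in NSCs against neurons, and 5 other glutathione transferases were called in yNSCs against NSCs and 5 in yNSCs against neurons, since fewer genes were tested.

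With a 2-fold minimum, 0 of the 36 genes were lower in yNSCs than in NSCs, 1 was lower in yNSCs than in neurons, and 12 were higher and 4 lower in NSCs than in neurons. In yNSCs against NSCs it left 19 of the 74 further genes, 12 higher and 7 lower, against 6.05% and 5.96% of all genes. Of the 19, 9 were other NRF2 targets, 3 of glutathione turnover, 3 other peroxidases, 2 other transferases, 1 of NADPH supply and 1 NRF2 partner. In yNSCs against neurons it left 34 in all, 28 higher and 6 lower, against 18.3% and 11.0% of all genes. They included 5 of glutathione turnover and 3 other peroxidases. In NSCs against neurons it left 28 in all, 22 higher and 6 lower, against 18.6% and 12.6% of all genes. They included 6 of glutathione turnover, 5 other NRF2 targets, 4 other peroxidases, 3 other transferases and 3 NRF2 partners.

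With 1 array left out, 3 to 6 genes were lower for yNSCs against NSCs, the count of 3 being without yNSC replicate C, and the median in yNSCs against neurons was 1.49 to 1.80. The differences that turned their sign in these fits ranged over -0.035 to 0.095 for Gstm5 and -0.027 to 0.068 for Sod2 in yNSCs against NSCs, over -0.017 to 0.028 for Sod1 in yNSCs against neurons and over -0.045 to 0.11 for Mgst1 in NSCs against neurons.

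With the replicate letter as a replicate block, which these letters do not bear out as a pairing, 22 of the 36 genes were called higher and 4 lower for yNSCs against NSCs, 27 and 4 for yNSCs against neurons, and 22 and 8 for NSCs against neurons. The calls of Mgst3 in yNSCs against NSCs, Gsto1 in yNSCs against neurons and Sod1 in NSCs against neurons were lost. The cause of these changes was not tested. The 3 arrays per group and probe sets near background, as for Gsta2 and Gsta3 outside yNSCs, Gsto2 and Mgst2 outside yNSCs and Aldh1a1 and Osgin1 in NSCs, limit the size of a difference more than its direction.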
